A study of Mus musculus with 27 samples.

Results

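The 10 genes described here, Ptprc, Plek, Csf1r, C1qb, Mpeg1, Cd14, Ctss, Cd68, Pf4 and Ppbp, are macrophage, pan-leukocyte and platelet lineage genes of the mouse. They were chosen by their measured levels at day 11, which separated the R1 line from both induced lines, and each was taken through every probe set annotated with its symbol alone. They account for 10 of the 18193 genes and 17 of the 45101 probe sets on the array. The study measured 3 mouse pluripotent lines before differentiation (day 0) and after 5 and 11 days of it, using Affymetrix arrays with 3 biological replicates in each of the 9 groups and 27 arrays in all. R1 is an embryonic stem cell line. 3F is the induced pluripotent line H9, made with 3 transcription factors, and 4F is the induced pluripotent line 19BL, made with 4. Per the labels, the pluripotent cells were kept on feeder cells inactivated with mitomycin, in medium with leukemia inhibitory factor (LIF). Differentiation went through embryoid bodies, in medium with 20% FBS and no LIF. Each genotype is a single line, so a difference between lines cannot be told apart from a difference between individual clones. Levels are the deposited log2 signals, and a difference of 1 is a doubling.

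Macrophages are phagocytes of the myeloid lineage that depend on signalling through the receptor Csf1r, whose ligands are Csf1 and Il34. Platelets are released by megakaryocytes and store the chemokines Pf4 and Ppbp in their granules. Embryoid bodies form blood cells in serum, beginning with primitive red cells, macrophages and megakaryocytes, much as the yolk sac does.

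Promoters of 4 of the genes are shown first, as the 250 bases before the annotated start of each gene. They were picked for contrast: Pf4 and Ppbp are neighbouring chemokine genes on chromosome 5 with different courses, and Ctss and C1qb represent the macrophage genes with and without a high day 0 level. The sequences are RefSeq's (GRCm38.p6), written 5′ to 3′ on the strand of the gene.
Ppbp, chr5:90768268-90768517, plus strand: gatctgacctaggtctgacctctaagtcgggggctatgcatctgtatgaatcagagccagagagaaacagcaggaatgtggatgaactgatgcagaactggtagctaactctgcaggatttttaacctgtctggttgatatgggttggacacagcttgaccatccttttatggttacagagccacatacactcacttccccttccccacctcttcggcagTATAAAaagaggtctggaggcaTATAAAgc
Pf4, chr5:90772185-90772434, plus strand: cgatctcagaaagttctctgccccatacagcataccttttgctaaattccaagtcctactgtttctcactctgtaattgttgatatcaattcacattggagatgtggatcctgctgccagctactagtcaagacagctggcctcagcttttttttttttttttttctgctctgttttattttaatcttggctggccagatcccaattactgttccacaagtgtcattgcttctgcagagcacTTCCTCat
Ctss, chr3:95526536-95526785, plus strand: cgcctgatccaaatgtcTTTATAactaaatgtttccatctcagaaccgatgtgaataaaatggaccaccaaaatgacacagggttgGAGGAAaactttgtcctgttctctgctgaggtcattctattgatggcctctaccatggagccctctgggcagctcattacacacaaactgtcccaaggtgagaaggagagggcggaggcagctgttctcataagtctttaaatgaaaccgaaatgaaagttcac
C1qb, chr4:136886201-136886450, minus strand: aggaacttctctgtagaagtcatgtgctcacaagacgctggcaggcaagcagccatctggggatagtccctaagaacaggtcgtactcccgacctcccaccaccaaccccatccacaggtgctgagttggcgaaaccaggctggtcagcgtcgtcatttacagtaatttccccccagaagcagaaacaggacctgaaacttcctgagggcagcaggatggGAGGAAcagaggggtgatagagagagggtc
Capitals mark matches on either strand to 3 short motifs. GAGGAA is the core bound by the myeloid factor PU.1. AGATAA is the core bound by the factors of the Gata family. TATAAA is the box bound by the general transcription machinery. The motifs do not overlap one another in these windows. Windows could be searched for 8 of the 10 genes (9 windows, because Ptprc has 2 starts). GAGGAA or its reverse complement lay in a window of 6 of the 8 genes and in 6 of the 9 windows, and in 23.3% of all 32851 mouse promoter windows of this length. AGATAA was found in 2 genes, Mpeg1 and Ptprc, and in 9.99% of all windows. TATAAA was found in 3 genes, Ctss, Ppbp and Ptprc, and in 12.4% of all windows. Ppbp carried 2 copies, 30 to 25 and 8 to 3 bases before its start, and no GAGGAA. Its neighbour Pf4 carried GAGGAA on the opposite strand, 8 to 3 bases before the start. These matches describe letters only.

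Facts of the whole series that bear on these genes come before the results. The third R1 array at day 11 stood apart from the other 2 in most of the 10 genes, and differences of R1 from the induced lines are given with and without it. The first 4F array at day 0 was the highest of its group for all 10 genes. The 3′ minus 5′ difference of the Actb and Gapdh control probe sets, a sign of RNA integrity, averaged 2.69 ± 0.23 (SD, n = 3) on the 4F arrays at day 11, against 1.94 ± 0.20 for R1 and 1.55 ± 0.23 for 3F. On bulk RNA, fewer cells of a type and less RNA per cell cannot be told apart. Of the lymphoid genes listed for other blood cells, 0 of 14 passed the test between R1 and either induced line at day 11. Of all genes, 0.786% were higher and 0.231% lower in R1 than in 3F, and 5.92% and 2.39% than in 4F. At these shares few of 14 genes would pass, so the 0 does not show that lymphoid cells were absent. The lymphoid mean stayed between 5.24 and 5.88 on all 27 arrays, around the 40th percentile of all values other than controls (5.373).

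The 10 genes followed 2 courses. Csf1r, Ptprc, Plek, C1qb and Pf4 were brightest in R1 at day 11, with every day 0 and day 5 group mean of every line below that mean. Ctss, Cd68 and Ppbp were bright in all 3 lines at day 0, dropped by day 5, and had day 11 means within 0.63 of the day 0 mean in R1 and at least 1.87 below it in 3F and 4F. For Ctss and Cd68 the R1 mean covers 1 array (the third) below every R1 array of day 0 and 2 arrays above the day 0 mean. Mpeg1 and Cd14 lay between these courses. They too had their highest mean in R1 at day 11. Their fall from day 0 to day 5 passed the test in 3F, and that of Cd14 also in 4F. The plot of every array below shows both courses.

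**Figure D1:**
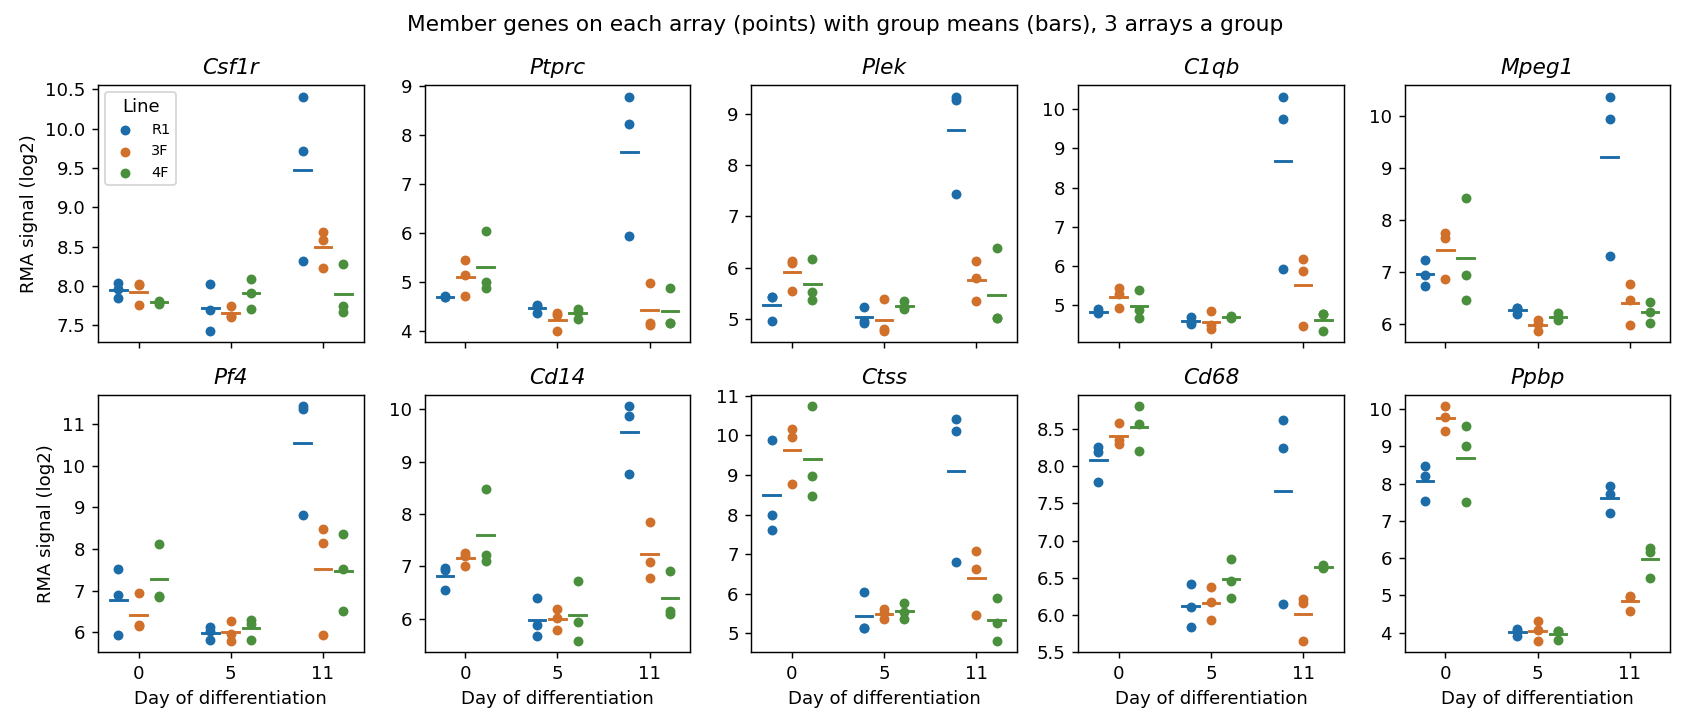
Deposited log2 signal (vertical axis) of the brightest probe set of each of the 10 genes against the day of differentiation, with 1 point per array and a bar at each group mean (R1 blue, 3F orange, 4F green, 3 arrays a group). Ctss, Cd68 and Ppbp were high at day 0 in all lines, and in each panel the R1 mean was the highest of the 3 lines at day 11.

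The platelet chemokine Ppbp (platelet basic protein, also a neutrophil attractant) had the widest range over time. At day 0 its levels were 8.48, 8.20 and 7.54 in R1, 10.07, 9.41 and 9.78 in 3F, and 9.54, 7.50 and 9.0 in 4F. At day 5 all 9 arrays lay between 3.79 and 4.31, below the 40th percentile of all values other than controls (5.373). The day 0 and day 5 arrays did not overlap in any line. Between these days Ppbp fell 16.6-fold in R1 (log2 difference -4.05 ± 0.35 SE, adjusted p = 1.57e-08), 51.7-fold in 3F (-5.69 ± 0.35, adjusted p = 8.44e-11) and 26.2-fold in 4F (-4.71 ± 0.35, adjusted p = 2.85e-09), by limma over all genes.

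Ctss, a lysosomal cysteine protease of antigen-presenting cells, fell next most. Its day 0 levels were 7.61, 7.98 and 9.87 in R1, 9.97, 8.77 and 10.15 in 3F, and 10.74, 8.98 and 8.48 in 4F, so single replicates of R1 and of 4F lay more than 2 units apart. At day 5 the 9 arrays ran from 5.12 to 6.05. The fall was -3.05 ± 0.73 in R1 (adjusted p = 0.00213), -4.14 ± 0.73 in 3F (adjusted p = 0.000137) and -3.84 ± 0.73 in 4F (adjusted p = 0.000605), in limma's test.

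Cd68, a lysosomal membrane protein of phagocytes, was tighter between replicates. It lay at 8.19, 8.25 and 7.78 in R1 at day 0, at 8.57, 8.36 and 8.30 in 3F, and at 8.80, 8.57 and 8.20 in 4F, against 5.84 to 6.75 on the day 5 arrays. In limma's test it fell by 1.95 in R1 (adjusted p = 0.00027), by 2.25 in 3F (adjusted p = 7.07e-05) and by 2.05 in 4F (adjusted p = 0.000428), each with an SE of 0.38.

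Cd14, the co-receptor for bacterial lipopolysaccharide on monocytes and macrophages, and Mpeg1, a pore-forming protein of macrophages, passed in some lines. Cd14 fell by 1.16 ± 0.37 in 3F (adjusted p = 0.0198) and by 1.52 ± 0.37 in 4F (adjusted p = 0.00467), while its difference in R1 was -0.83 ± 0.37 (adjusted p = 0.086), all from limma. Mpeg1 fell by 1.44 ± 0.52 in 3F (limma adjusted p = 0.0377), and its differences in R1 (-0.70) and 4F (-1.14) did not pass. The 3F calls of both were the least firm: Mpeg1 missed the threshold under quantile normalization (adjusted p = 0.0586) and without any one of 5 of the 6 arrays compared, and Cd14 missed it without 3F day 0 replicate 1 (adjusted p = 0.0626), 3F day 0 replicate 3 (0.0545) or 3F day 5 replicate 2 (0.0748).

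In all, from day 0 to day 5 the test was passed downward by 3 of the 10 genes in R1, 5 in 3F and 4 in 4F, and upward by 0 in every line, at an adjusted p under 0.05 and at least 2-fold. Of all genes, 8.1% passed downward and 6.62% upward in R1, 7.4% and 5.04% in 3F, and 4.82% and 2.25% in 4F. The median change of the 10 genes was -0.75 in R1, -1.05 in 3F and -1.16 in 4F, beside -0.02, -0.0039 and 0.02 for all genes. Ptprc, Plek, Csf1r, C1qb and Pf4 passed in no line, with differences from -1.17 (Pf4 in 4F) to 0.11 (Csf1r in 4F). The size of the change was also compared between lines: 0 of the 30 differences passed by limma, 1 had an unadjusted p under 0.05 and the lowest adjusted p was 0.205, for Ppbp in 3F against R1 (-1.64 ± 0.49).

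**Figure D2:**
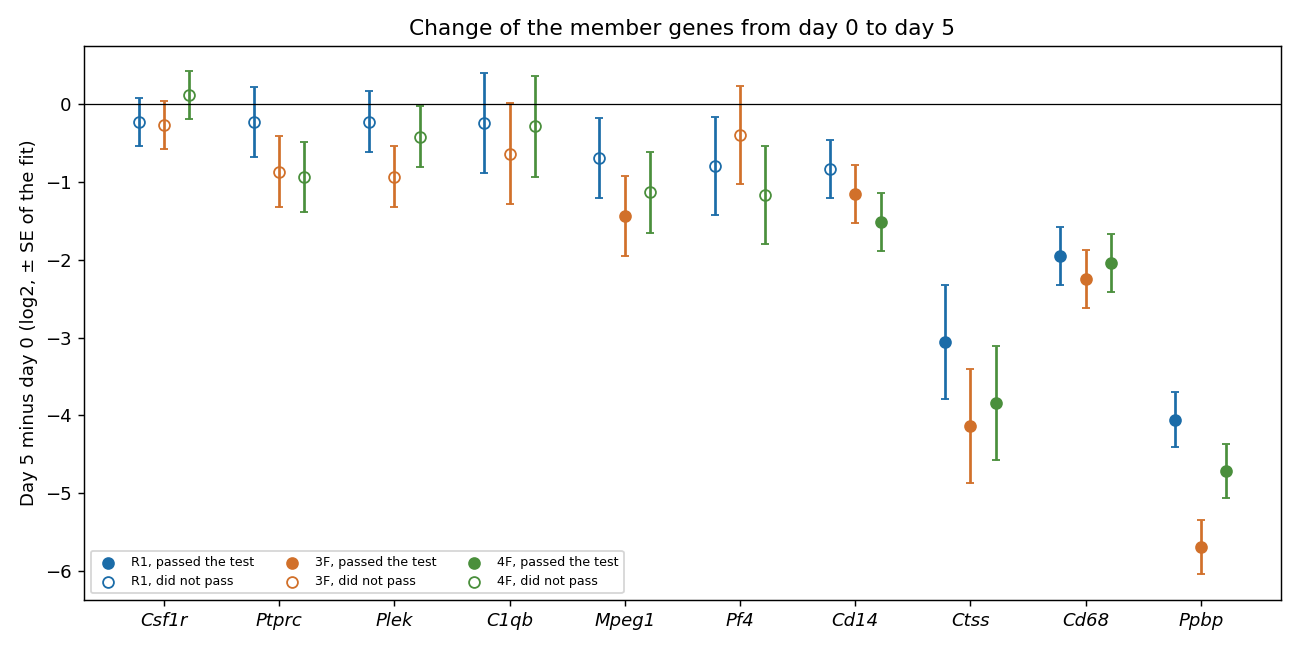
Difference between the day 5 and day 0 group means (vertical axis, log2, bars ± SE of the limma fit) for each of the 10 genes in R1, 3F and 4F. Filled points passed the test and open points did not; Ppbp, Ctss and Cd68 are filled in all 3 lines.

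Other genes moved over the same days. Among all genes 8.1% fell and 6.62% rose in R1, 7.4% and 5.04% in 3F, and 4.82% and 2.25% in 4F. Of the fibroblast genes, which mark feeder cells as well as mesenchyme, 10 of 19 fell in R1, 12 in 3F and 15 in 4F (4, 1 and 0 rose), and their mean per array ran from 8.99 to 11.2 at day 0 and from 6.65 to 8.53 at day 5. Csf1, the ligand of Csf1r, fell by 1.70 ± 0.38 in R1 (limma adjusted p = 0.00129), by 3.59 in 3F (2.47e-07) and by 3.02 in 4F (7.53e-06). Of 33 macrophage genes outside the 10, 4 fell and 3 rose in R1, 5 fell and 3 rose in 3F, and 5 fell and 1 rose in 4F. The R1 counts were near the shares of all genes. Lyz2, the macrophage lysozyme, fell by 2.86, 3.17 and 2.57 in R1, 3F and 4F, and Ms4a7, a macrophage membrane protein, fell by 1.35, 1.69 and 1.54. In 4F the scavenger receptor Marco fell by 2.20. Laptm5, a lysosomal membrane protein of blood cells, rose by 1.84, 2.05 and 1.83, although the mean of its probe sets was lower at day 5 (-0.74, -1.07 and -0.60). Lcp1, an actin bundler of leukocytes, rose by 1.76 in R1 and 1.62 in 3F, and Sirpa, an inhibitory receptor of myeloid cells, by 1.85 and 1.2. Among 24 megakaryocyte and platelet genes, 2 fell and 2 rose in R1, 3 fell in 3F and 4 fell in 4F. Here too the R1 counts were near the shares of all genes. Thbs1, which fibroblasts also express, fell most (by 3.42, 5.88 and 4.54). Per the labels, feeder cells belong to the culture of undifferentiated cells; the part of feeder RNA in the high day 0 levels of Ppbp, Ctss and Cd68 was not tested.

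Among the undifferentiated lines, Ppbp was 3.2-fold higher in 3F than in R1 (1.68 ± 0.35, limma adjusted p = 0.00593), and no array of one line reached those of the other. It was the only one of the 10 genes to pass, where 3.09% of all genes passed in either direction. In the same comparison 6 of 19 fibroblast genes were higher in 3F and 0 lower, and Csf1 was higher by 2.31 ± 0.38 (limma adjusted p = 0.000861); their part in the Ppbp difference was not tested. None of the 10 genes passed between 4F and R1 (limma, 1 with an unadjusted p under 0.05, 1.12% of all genes passing) or between 4F and 3F (1 with an unadjusted p under 0.05, 1.98% passing). The nearest was Ppbp, 1.07 ± 0.35 lower in 4F than in 3F (adjusted p = 0.0892). Without 4F day 0 replicate 1, or with array weights, 1 gene passed between 4F and 3F, and without 4F day 0 replicate 2, 1 passed between 4F and R1.

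At day 5 none of the 10 genes passed the test between lines. Every day 5 array of Ptprc, C1qb and Ppbp lay below 5.373, the 40th percentile of all values other than controls. At such low signal a difference between lines may not show. The 30 differences between lines ran from -0.29 to 0.36, 0 passed in limma's test, 0 had an unadjusted p under 0.05, and the lowest adjusted p was 0.671. The Mpeg1 arrays of 3F did not overlap those of R1 (3F minus R1, -0.29) or of 4F (4F minus 3F, 0.16). With 3 arrays a group, some of 30 comparisons can lack overlap without a difference between lines. The share of all genes without overlap was not counted. Of all genes, 0.374% passed between 3F and R1, 5.45% between 4F and R1 and 7.48% between 4F and 3F. In R1 at this day the third array was high for Gata1, the erythroid and megakaryocyte regulator (8.95 against 7.56 and 7.33), and for the megakaryocyte integrin Itga2b (8.50 against 7.31 and 7.44). On that array Pf4 read 6.03, against 6.14 and 5.81 on the other 2, and Ppbp read 4.10, against 3.92 and 4.04.

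The day 11 levels chose the genes, so they are given without a test. C1qb, a chain of the complement starter C1q made by macrophages, reached 9.75, 10.32 and 5.93 in R1, against 6.17, 5.86 and 4.48 in 3F and 4.35, 4.79 and 4.77 in 4F. The first 2 R1 arrays stood far above all others, and the third overlapped 3F. The R1 mean was 3.16 above 3F and 4.03 above 4F, and 4.53 and 5.40 without the third R1 array. Its other 2 probe sets gave differences of 3.04 and 4.01 from 3F and of 3.22 and 4.33 from 4F.

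Csf1r, the receptor that macrophages need for survival, lay at 9.71, 10.41 and 8.32 in R1 at day 11 on its brightest probe set, at 8.69, 8.58 and 8.24 in 3F and at 7.75, 7.67 and 8.28 in 4F. The third R1 array fell inside the 3F range. The 3 probe sets differed in size: R1 exceeded 3F by 0.98, 2.13 and 0.21, and 4F by 1.58, 3.19 and 0.69. On the probe set with the largest difference the R1 arrays read 11.6, 12 and 9.36 and the 3F arrays 9.17, 8.99 and 8.41, with no overlap. That probe set also lay above its 3F day 5 range of 6.62 to 7.09 on all 3 of the 3F day 11 arrays.

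Ptprc (CD45), a phosphatase found on leukocytes, lay at 8.22, 8.79 and 5.94 in R1, against 4.13 to 5.00 in 3F and 4.18 to 4.89 in 4F. All R1 arrays were above all induced arrays, and the 3F and 4F day 11 means were 0.19 and 0.05 above their day 5 means. A second Ptprc probe set stayed between 3.96 and 4.78 on all 27 arrays and showed no such difference. Plek, a protein kinase C substrate of platelets and leukocytes, lay at 9.27, 9.34 and 7.43 in R1, 5.36 to 6.12 in 3F and 5.01 to 6.38 in 4F, again without overlap. Its other 2 probe sets moved the same way by less, R1 exceeding 3F by 1.05 and 1.37.

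Mpeg1 lay at 9.94, 10.37 and 7.31 in R1, and between 5.98 and 6.78 in 3F and 6.02 and 6.42 in 4F. Cd14 read 9.87, 10.06 and 8.76 in R1, 7.08, 7.85 and 6.78 in 3F and 6.10, 6.15 and 6.92 in 4F. For both genes every R1 array exceeded every induced array. Cd14 in 3F at day 11 was back at its day 0 level (difference of means 0.08), and in 4F it was 1.21 below its day 0 level.

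Ctss read 10.11, 10.42 and 6.81 in R1, 6.62, 7.09 and 5.46 in 3F and 5.25, 4.81 and 5.90 in 4F. Cd68 read 8.24, 8.62 and 6.15 in R1, 6.21, 6.16 and 5.66 in 3F and 6.64, 6.64 and 6.67 in 4F. The third R1 array overlapped 3F for both genes, and for Cd68 it was below all 4F arrays. The R1 mean was 0.63 above its day 0 mean for Ctss and 0.41 below it for Cd68. Without the third array Ctss was 1.78 above, with both arrays higher than every R1 array of day 0, and Cd68 was 0.35 above. The third array was 1.37 above the day 5 mean for Ctss and 0.02 above it for Cd68. In 3F they stayed 3.24 and 2.40 below and in 4F 4.08 and 1.87 below.

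Of the platelet chemokines, Pf4 (platelet factor 4, a megakaryocyte product) read 11.36, 11.42 and 8.82 in R1, 8.16, 8.49 and 5.94 in 3F and 7.53, 6.52 and 8.35 in 4F. The R1 arrays were all higher than the induced ones, but 2 of the 3F arrays and all of the 4F arrays were also above every day 5 array of their lines, whose range was 5.81 to 6.31. Ppbp read 7.93, 7.72 and 7.20 in R1, 4.60, 4.98 and 4.97 in 3F and 6.28, 6.18 and 5.46 in 4F. The lines ordered R1 above 4F above 3F with no overlap, and in each line all day 11 arrays lay above all day 5 arrays. The R1 mean was 0.46 below its day 0 mean with overlapping arrays (0.25 below without the third array), and 3F and 4F remained 4.90 and 2.71 below theirs.

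On the brightest probe sets and with all arrays, the order of the R1 lead over 3F, from largest to smallest, was Ptprc (3.22), C1qb (3.16), Pf4 (3.00), Plek (2.92), Mpeg1 (2.80), Ppbp (2.77), Ctss (2.72), Cd14 (2.32), Cd68 (1.66) and Csf1r (0.98). The rule gave no threshold. Without the third R1 array the order was C1qb (4.53), Ptprc (4.07), Ctss (3.87), Pf4 (3.86), Mpeg1 (3.75), Plek (3.54), Ppbp (2.97), Cd14 (2.72), Cd68 (2.42) and Csf1r (1.56). The lead over 4F ran from 1.02 (Cd68) to 4.03 (C1qb), and from 1.78 to 5.40 for the same genes without that array. With an SD of up to 2.39 between the R1 replicates (C1qb), most neighbours in this order cannot be separated.

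The third R1 array was the lowest of its group for each of the 10 genes. Relative to the mean of the other 2 arrays its difference was -4.10 in C1qb, -3.46 in Ctss, -2.85 in Mpeg1, -2.57 in Pf4, -2.56 in Ptprc, -2.28 in Cd68, -1.87 in Plek, -1.74 in Csf1r, -1.20 in Cd14 and -0.62 in Ppbp. On this array C1qb was 0.43 above the 3F mean, and Ppbp was 2.35 above it. The third 3F array was also the lowest of its group for 9 of the 10 genes, all but Ppbp. By correlation, replicate numbers of R1 and 3F went together at this day, though not at day 0 or day 5. The sample titles state no pairing. R1 was above 3F at all 3 replicate numbers for every one of the 10 genes, but the genes were chosen for this difference. Where the arrays overlapped, the differences within replicates 1, 2 and 3 were 3.57, 4.46 and 1.45 for C1qb, 3.49, 3.33 and 1.35 for Ctss, 2.03, 2.46 and 0.49 for Cd68, and 1.03, 1.83 and 0.09 for Csf1r. Some genes outside the 10 were split in the same manner, others less or not at all. C1qa, C1qc and Tyrobp (a signalling adaptor of myeloid cells) read 5.57, 5.94 and 6.84 on the third array against 8.25 to 9.55 on the first 2. Adgre1, the gene of the macrophage antigen F4/80, read 9.74, 9.40 and 8.83, and Irf8, a regulator of monocyte development, read 9.24, 9.41 and 9.24. Csf1 was higher on the third array by 0.83, and Spi1, the gene of PU.1, was 0.80 below the other 2 at 6.77.

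**Figure D3:**
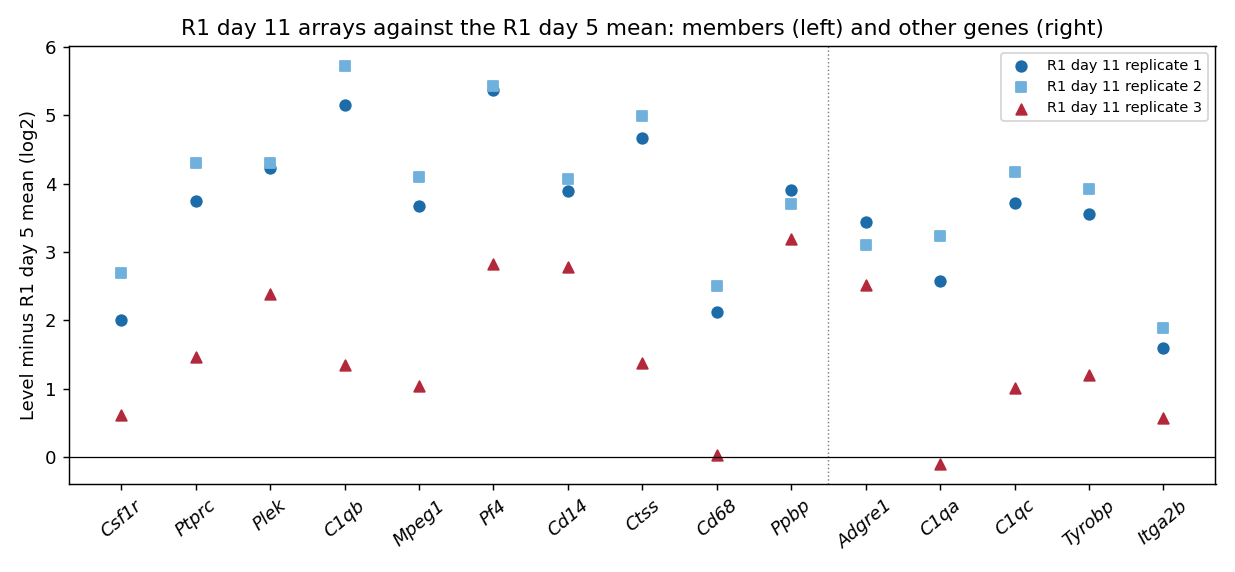
Level on each R1 day 11 array minus the R1 day 5 mean (vertical axis, log2) for the 10 genes, left of the dotted line, and for 5 other macrophage and megakaryocyte genes, right of it. The third array (red triangles) lay below the other 2 throughout, with differences of -4.10 for C1qb but -0.62 for Ppbp and -0.74 for Adgre1.

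One difference at day 11 did not enter the choice of genes, that between the 2 induced lines, although the arrays did. Ppbp was 2.17-fold higher in 4F than in 3F (1.12 ± 0.35, limma adjusted p = 0.0188), 1 of 10 genes, where 10% of all genes passed in either direction. The call was lost when only the 6 arrays were fitted (adjusted p = 0.0528), with array weights (0.0663), with the RNA index as a covariate (0.33) or without 3F replicate 1 (0.0703), 4F replicate 1 (0.0854) or 4F replicate 2 (0.0716). Cd14 was 0.85 ± 0.37 lower in 4F (adjusted p = 0.0849) and Csf1r 0.60 ± 0.31 lower (adjusted p = 0.136), and neither passed. The 4F arrays at day 11 also kept higher levels of pluripotency genes, with a mean per array of 9.05 to 9.80 against 6.91 to 7.09 in 3F, and lower levels of fibroblast genes (9.27 to 10.4 against 10.95 to 11.7); their part in the Ppbp difference was not tested.

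Genes of the same lineages that are not among the 10 were followed as lists. The lists were drawn up with earlier results of these data known. Of 33 other macrophage genes, 10 were higher in R1 than in 3F at day 11 and 0 lower, where 0.786% of all genes passed upward and 0.231% downward. The list median was 0.98 beside 0.04 for all genes. The largest differences were those of Coro1a, an actin-binding protein of leukocytes (2.80 ± 0.46, limma adjusted p = 0.00116), Adgre1 (2.67 ± 0.30, adjusted p = 1.61e-05), C1qc (2.50 ± 0.45, adjusted p = 0.00257) and Tyrobp (2.37 ± 0.48, adjusted p = 0.00744). C1qa and C1qc lie beside C1qb on chromosome 4; C1qa was higher by 1.44 ± 0.51 and did not pass (adjusted p = 0.139). The number of macrophage genes higher was 1 when only these 6 arrays were fitted, the one being Adgre1 (adjusted p = 0.0195), 5 without R1 replicate 1 or 2, and 15 without R1 replicate 3.

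Against 4F, 18 of the 33 macrophage genes were higher in R1 and 0 lower (5.92% of all genes upward, 2.39% downward), with a median of 1.33 beside 0.10. Coro1a (3.12), C1qc (3.07), Lcp1 (3.01) and Lyz2 (2.99) led. From day 5 to day 11 the same list rose in 18 genes and fell in 0 in R1 (7.1% and 4.53% of all genes), rose in 3 and fell in 0 in 3F (6.16% and 10.8%), and rose in 0 and fell in 1 in 4F (6.66% and 9.16%). In R1, Lyz2 rose by 3.16 ± 0.45 (limma adjusted p = 1.62e-05) and Adgre1 by 3.02 ± 0.30 (adjusted p = 1.21e-07). In 3F the 3 were Lyz2 (1.79), Ctsb (1.26) and Mertk (1.25), and in 4F Coro1a fell by 2.42.

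Of the 24 megakaryocyte and platelet genes outside the 10, 4 were higher and 1 lower in R1 than in 3F at day 11, and 6 were higher and 0 lower in R1 than in 4F. Among all genes 0.786% were higher and 0.231% lower against 3F, and 5.92% and 2.39% against 4F. Clec1b, the podoplanin receptor of platelets, was higher by 2.46 ± 0.33 against 3F (limma adjusted p = 0.000108) and by 2.81 against 4F (3.29e-06). Fermt3, which activates integrins in blood cells, and Tubb1, the platelet tubulin, were higher against 3F by 1.63 and 1.57. Itgb3, the integrin chain of the platelet fibrinogen receptor and also found on other cells, went the other way, 1.59 ± 0.26 lower in R1 than in 3F (limma adjusted p = 0.00103). Itga2b, its partner, was higher in R1 by 0.66 ± 0.27 and did not pass against 3F (adjusted p = 0.189). From day 5 to day 11, 7 of the 24 genes rose in R1, 6 in 3F and 2 in 4F, and 0 fell. Among all genes 7.1%, 6.16% and 6.66% rose and 4.53%, 10.8% and 9.16% fell, so the rise in 4F was near the share of all genes. Fermt3 rose in all 3 lines (2.20, 2.17 and 2.17). In the comparison of R1 with 3F the higher genes numbered 0 when only the 6 arrays were fitted, 1 without R1 replicate 1, 2 without R1 replicate 2 and 7 without R1 replicate 3.

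Among regulators and ligands of these lineages, Irf8 was higher in R1 at day 11 than in 3F by 1.77 ± 0.25 (limma adjusted p = 0.000208), the only 1 of 21 blood regulators to pass, and than in 4F by 2.87 (9.87e-08). At day 5 Irf8 was instead highest in 4F, by 1.57 over R1 (limma adjusted p = 0.000246) and by 1.495 over 3F (0.000212). Against 4F at day 11, 4 of the 21 were higher in R1 and 0 lower, the others being Cd34 (2.41), a surface protein of blood progenitors and vessels, and the transcription factor genes Lmo2 (1.91) and Maf (1.47). Spi1 was higher in R1 by 0.80 and 0.82 (limma adjusted p = 0.00751 and 0.00076), short of the 2-fold threshold. Runx1 differed by -0.25 and -0.09 and passed in neither. Csf1 rose from day 5 to day 11 in all 3 lines (by 1.81, 1.33 and 1.31), and its day 11 level in R1 was 0.06 above 3F and 0.51 above 4F, passing in neither. Il34 was 0.56 lower in R1 than in 3F and 0.15 higher than in 4F and passed in neither. Of 16 granulocyte and mast cell genes, 0 passed in either comparison of R1 with an induced line at day 11. Of all genes, 0.786% were higher and 0.231% lower in R1 than in 3F, and 5.92% and 2.39% than in 4F. At these shares few of 16 genes would pass. The mean of the red cell genes per array at day 11 was 8.06 to 8.42 in 3F, 6.72 to 8.13 in R1 and 6.80 to 7.20 in 4F. Of the fibroblast genes, 1 of 19 was higher in R1 than in 3F and 11 than in 4F, and their part in the differences from 4F was not tested.

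**Figure D4:**
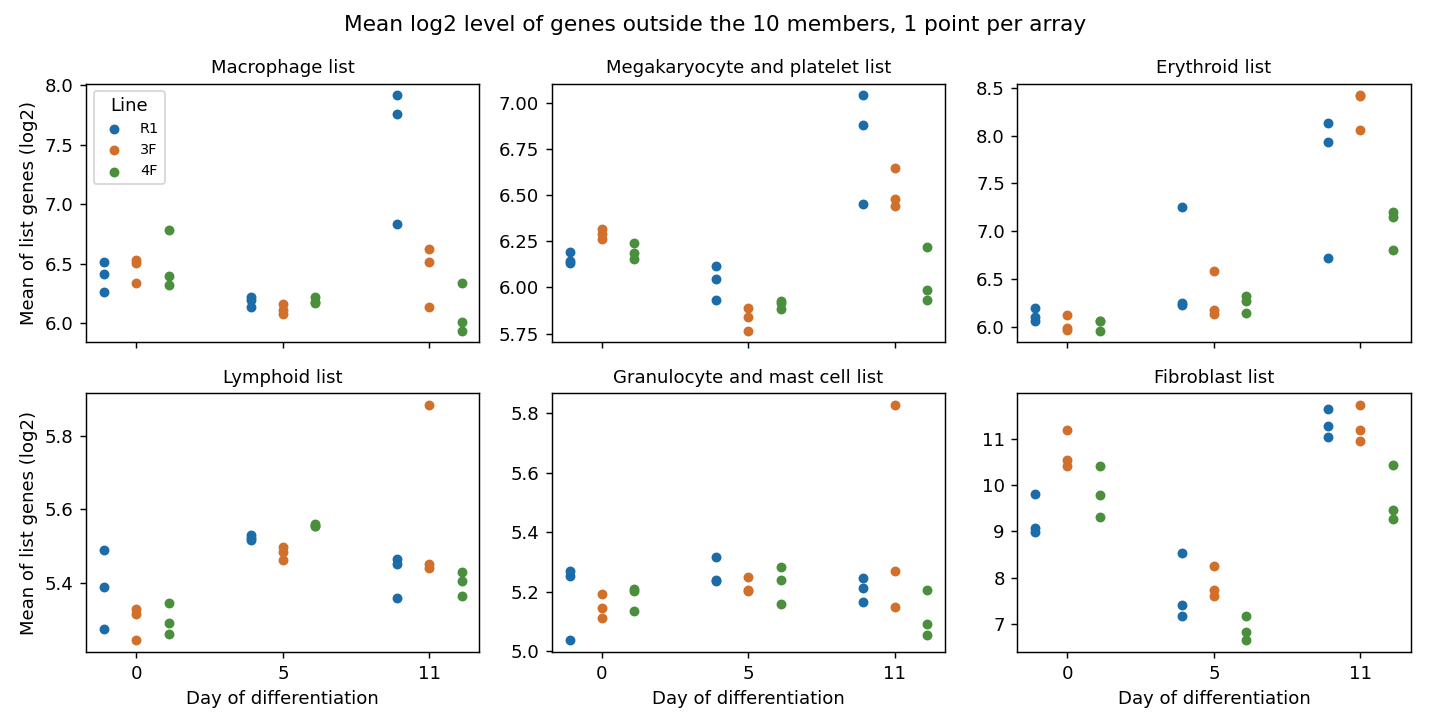
Mean log2 level per array (vertical axis) of 6 lists of genes, none of them among the 10, against the day of differentiation (R1 blue, 3F orange, 4F green, 1 point per array). The macrophage list was highest in R1 at day 11, from 6.84 to 7.92, while the lymphoid and the granulocyte and mast cell lists stayed below 5.9 on every array.

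Across the 27 arrays the levels of the 10 genes were correlated in pairs. The correlations are descriptions, since arrays of a group share line and day. Ptprc tracked Mpeg1 (r = 0.96) and Plek (r = 0.95), and Csf1r tracked C1qb (r = 0.94). The 2 platelet chemokines, which are neighbours in the genome, had r = 0.30 with each other, and 0.13 after each group's mean was removed. Pf4 went with Plek (r = 0.91) and C1qb (r = 0.89), and Ppbp with Cd68 (r = 0.89) and Ctss (r = 0.85). With each group's mean removed, Pf4 had r = 0.76 with both Plek and C1qb, while Ppbp had 0.26 with Cd68 and 0.16 with Ctss. The third R1 array at day 11 enters these values. Its difference from the mean of the other 2 was -2.57 in Pf4, -1.87 in Plek and -4.10 in C1qb. Correlations without it were not computed. The genes most like the mean of Cd14, Ctss, C1qb, Mpeg1, Cd68 and Csf1r over the 27 arrays were Ms4a6d (r = 0.96), Cd53 (0.96), Clec4d (0.96), Ccr1 (0.94), Fcer1g (0.92), C1qa (0.92), C1qc (0.92) and Clec4n (0.91). Those most like the mean of Pf4 and Ppbp were Clec4d (r = 0.90), Clec4n (0.88), Lyz1 (0.88), Cd53 (0.88), Slc66a2 (0.87), Ms4a6d (0.87), Hs2st1 (0.87) and Gzme (0.87), of which Clec4d, Clec4n, Cd53 and Ms4a6d were in both sets.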

How the data were processed

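RNA of 27 cultures was labelled as biotinylated cRNA and measured on Affymetrix arrays. Per the submitters' processing notes, the deposited log2 values were made by RMA (version not given). They were used unchanged (range 3.00 to 15.67; medians per array 5.91 to 6.10). Arrays have no read depth, and 3 arrays a group limit the precision. Of 45101 probe sets, 34945 carried 1 symbol, 932 several, 9160 none and 64 were controls. A gene was its probe set of highest mean (18193 genes). limma 3.58.1 in R 4.3.3 fitted 1 mean per group over all arrays with Benjamini-Hochberg adjustment over all genes. A gene passed at an adjusted p under 0.05 and at least 2-fold. SDs measure the spread between the 3 biological replicates of a group. SEs and p-values rest on 1 estimate of the spread per gene, shared by the 9 groups. They can understate the spread of a group that varies more than the others. For C1qb the SE of a difference was 0.65, while its R1 day 11 arrays had an SD of 2.39. The 10 genes and all gene lists were chosen with earlier results of these data known. Named genes were the 10, up to 4 of largest change among those that passed in a described list, Spi1, Runx1, Gata1, Itga2b, Adgre1, C1qa, C1qc, Tyrobp, Csf1 and Il34, and the 8 most like each mean profile. Of the lists, endothelial genes, listed as other cells of embryoid bodies, had 0 of 16 higher in R1 than in 3F at day 11 and 7 than in 4F, and lysosome genes 0 and 6 of 16. Among all genes 0.786% and 5.92% were higher. Replicate numbers went together, by correlations over 0.1 for all 3 numbers, in 3 comparisons, and the sample titles state no pairing. These were 4F against R1 at day 0 (0.48, 0.25 and 0.33) and R1 against 3F at day 11 (0.12, 0.49 and 0.39). The last was 4F at day 11 against day 5 (0.13, 0.10 and 0.15). Alternatives covered normalization, probe set choice, a filter on dim genes, the arrays fitted, the variance model, array weights, RNA integrity, a replicate block, the threshold and each left-out array. The fit was tested on simulated data.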

Additional observations from a re-analysis of the deposited data

Results flagged for a closer look

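The change from day 5 to day 11 differed between lines, at 2-fold or more, for 3 macrophage genes outside the 10. The difference itself was tested in limma over all genes. These 3 genes were named with earlier results of these data known. The test also uses the day 11 arrays that chose the 10 genes, so it is no independent evidence. The rise of Adgre1 was smaller than in R1 in 3F (log2 difference -2.49 ± 0.42 SE, adjusted p = 0.015) and in 4F (-2.51 ± 0.42, adjusted p = 0.000949). That of C1qc was smaller in 4F (-3.23 ± 0.63, adjusted p = 0.00301), as was that of Tyrobp (-2.89 ± 0.68, adjusted p = 0.00967). Their differences in 3F had the same direction and did not pass (C1qc -2.61, adjusted p = 0.117; Tyrobp -2.32, adjusted p = 0.199), and 4F was not shown to differ from 3F (adjusted p = 0.534 and 0.595). For Spi1 the difference in 4F was below 2-fold (-0.80, adjusted p = 0.03). Groups of 3 arrays were not tested for outlying arrays, and the third R1 array at day 11 is described by its values alone.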

How the results depend on the processing

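Of 14 changes of the 10 genes that passed, 11 passed under every alternative; the others were Cd14 and Mpeg1 in 3F from day 0 to day 5 and Ppbp in 4F against 3F at day 11. Of 180 that passed among the macrophage, megakaryocyte and platelet, blood regulator, and growth factor and receptor lists, 80 did so under every alternative. Genes of the other lists were not followed 1 by 1. Leaving out 1 array at a time, the number of the 10 genes passing ran from 3 to 5 in 3F from day 0 to day 5 (5 with all arrays), 0 to 1 for 4F against R1 and for 4F against 3F at day 0 (0), and 0 to 2 for 4F against 3F at day 11 (1). Array weights gave 1 for 4F against 3F at day 0. For 4F against 3F at day 11, fitting only those arrays gave 0, and the RNA index as a covariate gave 0. Of the 198 genes of all lists, 20 passed between R1 and 3F at day 11, and 2 when only those arrays were fitted. With 1 array left out, 12 to 32 passed (13 without R1 replicate 1, 12 without R1 replicate 2, 32 without R1 replicate 3). Between R1 and 4F, 64 passed, and 39 with the RNA index as a covariate. In 4F from day 5 to day 11, 40 passed, and 61 with no fold threshold. Laptm5, which passed as higher at day 5 than at day 0 in R1, 3F and 4F, was lower with the mean of its probe sets (-0.74, -1.07 and -0.60). With the RNA index as a covariate, 4F minus 3F at day 11 turned from lower to higher for Thbs1 (0.28) and Maf (0.61), neither passing. The replicate block changed no call among the 10 genes, and 22 list genes passed with it between R1 and 3F at day 11. The cause of these changes was not tested.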
